A study of Mus musculus with 16 samples.

Results

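The genes described are the solute carriers outside the mitochondrial carrier family, 58 of the 5921 gene rows held. They were chosen by symbol alone: the rows whose symbol starts with Slc and a family number, or with Slco, after leaving out the mitochondrial family Slc25a, pseudogenes and the 3 genes Slc1a4, Slc4a1 and Slc2a4. Of these, 21 lay on chromosome 1, 20 on chromosome 10 and 17 on chromosome 11, and 6 were amino acid carriers. Carriers encoded elsewhere in the genome were not analysed here.

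Solute carriers are membrane proteins that move amino acids, sugars, vitamins, nucleotides, metal ions and organic anions or cations across the plasma membrane and the membranes of organelles. Most work as exchangers or draw on an ion gradient. ATF4, the transcription factor whose gene is targeted in this study, is known as a regulator of the response to amino acid shortage. Several amino acid carriers are among its known targets in other cells.

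RNA was sequenced from ventricles of mouse embryos at E11.5, in 4 groups of 4 libraries. The exon 2-3 line is labelled batch 1, and its allele Atf4 fl(e2/3) has both exons flanked by loxP sites. The exon 2 line is labelled batch 2, and its allele Atf4 fl(e2) has exon 2 alone flanked. The conditional knockouts (cKO) of both lines carried Xmlc2-Cre, a transgene that drives Cre recombinase in cardiomyocytes, so the other cells of the ventricle keep an unrecombined allele. Each line had its own controls, and whether these carried the floxed allele or the transgene is not given in the labels. The genotype label C57BL/6 WT stands on all 16 libraries, cKO included. Atf4 itself was not analysed here, so every direction given below rests on the labels. Line and batch coincide and cannot be told apart.

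All values are in TPM, the abundance of transcripts scaled by their length and to the same total in every library, so that levels of different genes can be set side by side. The rows held made up between 15.2% and 17.1% of a library's TPM, and a library had between 4505 and 4873 of them above 0. The stated depth was between 30000000 and 70000000 paired-end reads per library, but TPM keeps no depth, so the reads behind a value are unknown. The 7 cardiomyocyte markers held summed to between 12567 and 18505 TPM in every library, and the 2 neuronal markers held (Map2 and Syt1) to at most 2.11 TPM, which was looked at because the extraction text names cortical neurons. In whole ventricles, fewer cells of a type and less RNA per cell cannot be told apart.

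The levels of the 58 carriers spanned the whole range from absent to abundant. A mean of at least 1 TPM over the 16 libraries, the minimum for testing, was met by 31 of them (53.4%, against 44.2% of all rows held). A mean of at least 5 TPM was met by 18, at least 10 TPM by 7 and at least 20 TPM by 4. The last carrier inside the minimum was Slc30a10 at a mean of 1.01 TPM, and the first outside was Slc6a4 at 0.862 TPM. The carriers Slc9a4, Slco6b1 and Slco6c1 were listed at 0 in all 16 libraries. Summed over the 58 carriers, the level was 282 ± 21.8 TPM in the exon 2-3 controls and 298 ± 11.6 TPM in their cKO (SD, n = 4 in each group). It was 335 ± 17.7 TPM in the exon 2 controls and 333 ± 17.9 TPM in their cKO.

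The most abundant carrier was Slc35b1, a carrier of the endoplasmic reticulum membrane that exchanges ATP for ADP, with a mean of 57.5 TPM (chr11:95384856-95391776, plus strand, GRCm38.p6, as are all coordinates here). Its libraries read 60.4, 62.5, 55.5 and 66.7 TPM in the exon 2-3 controls and 61.4, 53.04, 54.8 and 61.6 TPM in their cKO. Those of the exon 2 line read 65.0, 55.3, 52.5 and 49.4 TPM in the controls and 51.4, 54.1, 61.0 and 56.1 TPM in the cKO. All 4 groups overlapped, and the cKO effects were -0.09 and 0.0065 on the log2(TPM + 1) scale.

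Slc39a10, which imports zinc, was the next most abundant at a mean of 38.0 TPM (chr1:46807544-46925776, minus strand). The exon 2-3 controls read 33.6, 32.9, 27.7 and 30.9 TPM and their cKO 35.3, 33.5, 33.2 and 32.3 TPM. The exon 2 controls read 45.0, 40.0, 42.7 and 41.6 TPM and their cKO 42.3, 44.7, 50.7 and 41.1 TPM. The 2 lines did not overlap for this gene, while control and cKO overlapped within each.

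Slc35f5, a member of the nucleotide sugar carrier family whose cargo is not settled, had a mean of 32.7 TPM (chr1:125560528-125595834, plus strand). Its exon 2-3 controls read 34.4, 32.4, 28.3 and 30.7 TPM and the cKO 32.4, 32.1, 32.2 and 32.2 TPM. Its exon 2 controls read 32.2, 30.2, 38.8 and 35.4 TPM and the cKO 30.2, 32.1, 36.1 and 33.7 TPM. The 4 exon 2-3 cKO libraries lay within a narrow band (32.2 ± 0.117 TPM, SD, n = 4) inside the range of their controls.

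Slc47a1, which exports organic cations in exchange for protons, had a mean of 23.6 TPM (chr11:61343400-61378842, minus strand). It read 26.7, 24.3, 19.7 and 21.4 TPM in the exon 2-3 controls, 25.2, 21.6, 21.2 and 24.1 TPM in their cKO, 23.8, 23.4, 26.2 and 23.3 TPM in the exon 2 controls and 22.8, 25.7, 24.3 and 24.5 TPM in their cKO. The cKO effects were 0.0065 and 0.0089 on the log2 scale, against standard errors of 0.099 and 0.064.

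Slc4a3, the chloride and bicarbonate exchanger known from heart muscle, had a mean of 19.5 TPM (chr1:75546044-75559431, plus strand). It read 18.3, 17.7, 15.5 and 19.8 TPM in the exon 2-3 controls and 15.6, 16.3, 16.2 and 20.1 TPM in their cKO. Its exon 2 libraries read 22.9, 19.96, 21.9 and 20.6 TPM in the controls and 23.8, 19.1, 21.3 and 23.5 TPM in the cKO. Control and cKO overlapped in both lines. None of these 5 carriers was called in either line (limma, adjusted p at least 0.426).

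Below these 5, a middle band of 13 carriers had means between 5.12 and 11.1 TPM. It held the magnesium carrier Slc41a1 (11.1 TPM), the carnitine importer Slc22a5 (9.63 TPM), the zinc importer Slc39a3 (7.32 TPM) and the iron exporter Slc40a1 (5.12 TPM). The carriers Slc19a2 (9.44 TPM), Slc16a10 (8.42 TPM), Slc30a1 (7.85 TPM) and Slc36a1 (6.03 TPM) stood in the same band. The last 13 tested carriers ran from Slc19a1 (4.46 TPM) down to Slc30a10, with Slc43a2 at 4.36 TPM and Slc36a2 at 1.99 TPM among them. By class, the 7 members of the nucleotide sugar family 35 held the most, at 107 ± 8.17 TPM in the exon 2-3 controls, followed by the 9 metal carriers at 60.2 ± 5.03 TPM (SD, n = 4). The 6 amino acid carriers together held 17.9 TPM there. Neighbours in this order often overlapped in their libraries: Slc22a5 ranged from 8.25 to 11.3 TPM and Slc26a10 from 7.20 to 14.6 TPM over the 16.

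The first comparison set the exon 2-3 cKO against its own controls. Of the 31 carriers tested, 3 rose and none fell (limma on log2(TPM + 1), Benjamini-Hochberg over all 2620 genes tested, adjusted p under 0.05). Over all genes tested, 6.72% were called, 4.16% higher and 2.56% lower. The carriers that rose were the thiamine importer Slc19a2, the amino acid carrier Slc43a2 and the zinc exporter Slc30a1. At an unadjusted p under 0.05 there were 6 of 31 carriers, with Slc35e3, Slc18b1 and Slc16a10 added, beside 21.1% of all genes tested. The 4 cKO libraries lay above all 4 controls in 4 carriers (9.24% of all genes tested) and below them in none (5.31%). Among the 31, 19 fold changes were positive and 12 negative, with a median of 0.039, beside a median of 0.032 over all genes. Under median centring 5 carriers were called, 4 higher and 1 lower. The median over all genes was then -0.017. Without exon 2-3 control replicate 1, 2 or 3, or cKO replicate 1, 2 or 4, only Slc19a2 was called, as with no filter on low values, and without control replicate 4 there were 5.

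**Figure D1:**
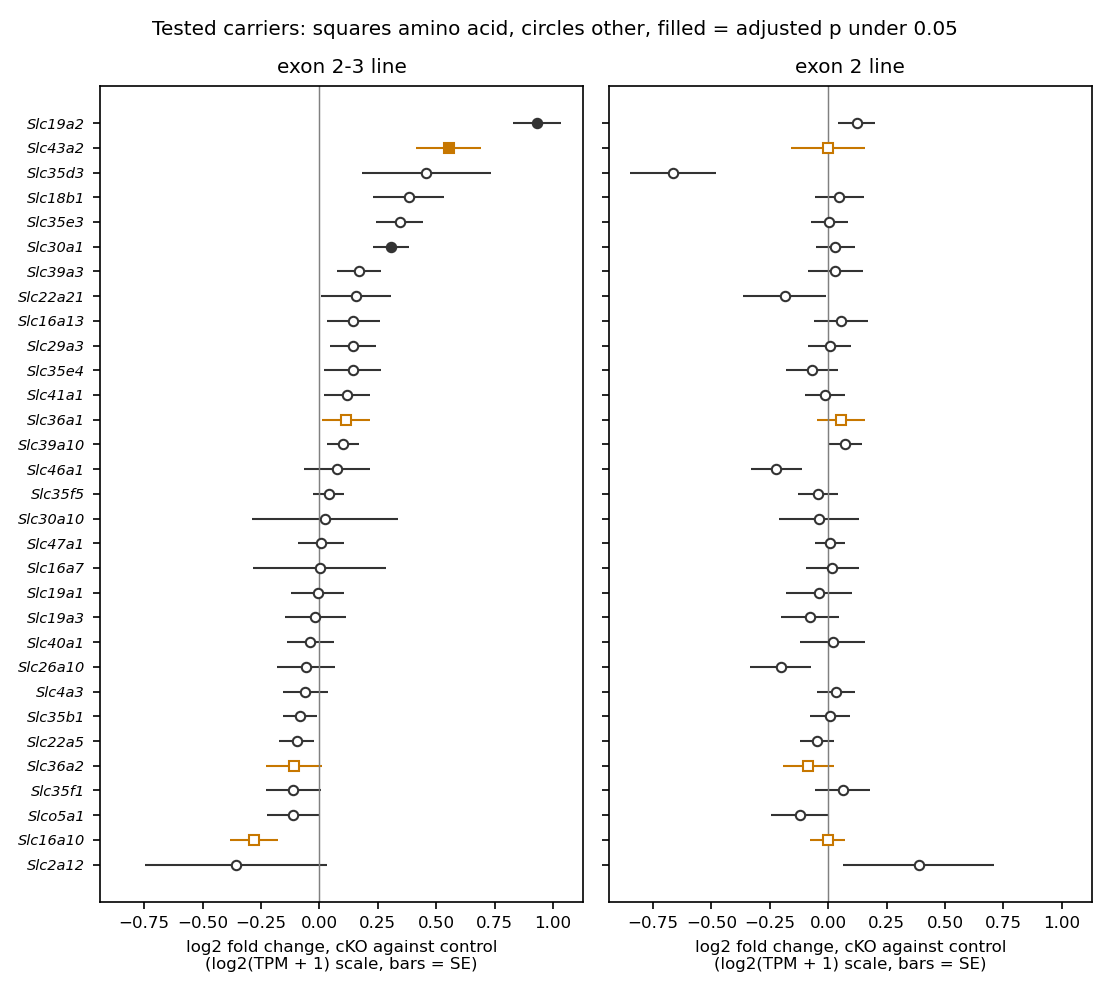
Log2 fold change of cKO against control, on the log2(TPM + 1) scale, for the 31 carriers tested, in the exon 2-3 line (left) and the exon 2 line (right). Points are limma estimates, bars their standard errors, squares the 4 amino acid carriers and filled symbols an adjusted p under 0.05. Slc19a2, Slc43a2 and Slc30a1 are filled on the left, and no symbol is filled on the right.

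Slc19a2 changed most among the called carriers. It encodes a high-affinity thiamine importer of the plasma membrane, and in other cells it is a known target of p53 (chr1:164249046-164265385, plus strand, overlapping no other row). The exon 2-3 controls read 7.57, 7.22, 6.06 and 9.11 TPM, and the cKO read 15.5, 14.3, 14.9 and 15.5 TPM. Every cKO library was therefore well above the highest control, and the ratio of the group means was 2.01. The fold change was 0.93 on the log2 scale (SE 0.104, limma adjusted p = 0.000969). It was called under all 17 alternatives run for this line, and without any 1 library the adjusted p was at most 0.00500.

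Slc19a2 in the exon 2 line read 7.42, 6.85, 7.42 and 7.21 TPM in the controls and 7.45, 8.21, 8.58 and 7.60 TPM in the cKO. The 4 cKO libraries again lay above the 4 controls, the only carrier of 31 for which this held in that line (0.687% of all genes tested). The step was small: 0.12 on the log2 scale, with an SE of 0.079 and a limma adjusted p of 0.999. The difference between the 2 lines' effects was 0.81 (SE 0.127, limma adjusted p = 0.00158), called under all 24 alternatives. The 2 control groups of Slc19a2 differed by 0.03 (SE 0.090), so the cKO of the exon 2-3 line stood apart from the other 3 groups, which together ranged from 6.06 to 9.11 TPM.

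Slc43a2 is a facilitative carrier of branched-chain amino acids, phenylalanine and methionine (chr11:75529915-75577575, plus strand, with Mir3971 inside it on the same strand at a group mean of at most 0.254 TPM). Its exon 2-3 controls read 2.85, 3.84, 2.74 and 4.09 TPM and its cKO 6.42, 5.47, 4.28 and 5.49 TPM. The lowest cKO library was just above the highest control. The fold change was 0.55 (SE 0.139, limma adjusted p = 0.0436), and it lost its call in 6 of the 8 fits without 1 library (adjusted p up to 0.122) and with no filter on low values (0.136). In the exon 2 line the controls read 4.12, 5.14, 4.72 and 3.25 TPM and the cKO 3.54, 3.66, 4.20 and 5.90 TPM, with an effect of -0.0028. The difference between the lines was 0.56 (SE 0.222, limma adjusted p = 0.220).

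Slc30a1 encodes the zinc exporter of the plasma membrane (chr1:191906697-191913248, plus strand, overlapped on the other strand by 1700034H15Rik at a group mean of at most 0.417 TPM). It read 7.16, 6.97, 6.10 and 7.37 TPM in the exon 2-3 controls and 8.47, 8.89, 9.04 and 8.62 TPM in the cKO. The groups were apart, with a ratio of means of 1.27 and a fold change of 0.31 (SE 0.077, limma adjusted p = 0.0438). The call was lost in 7 of the 8 fits without 1 library (adjusted p up to 0.129) and with no filter on low values (0.0583). Libraries of the exon 2 line read 8.01, 7.50, 7.71 and 7.90 TPM in the controls and 7.23, 7.92, 7.85 and 8.95 TPM in the cKO. The exon 2-3 controls thus lay below all exon 2 controls, and the cKO of the 2 lines overlapped. The difference between the lines was 0.28 (SE 0.104, limma adjusted p = 0.197).

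Slc35e3, an orphan member of the nucleotide sugar carrier family, was the other tested carrier with no overlap (chr10:117733678-117746358, minus strand). It read 7.72, 8.49, 6.44 and 9.27 TPM in the exon 2-3 controls and 10.4, 10.03, 10.2 and 10.7 TPM in the cKO. The fold change of 0.34 (SE 0.10) missed the threshold (limma adjusted p = 0.0752). It passed in 5 of the 17 alternatives: quantile normalisation (0.0223), median centring (0.0232), rescaling without hemoglobin genes (0.0312), one fit over all libraries (0.0219) and without control replicate 4 (0.0407). In the other 12 it was not called, among them 7 of the 8 fits without 1 library (adjusted p up to 0.173) and no filter on low values (0.152). The exon 2 libraries read 11.2, 10.5, 11.9 and 10.2 TPM in the controls and 10.04, 10.97, 11.8 and 11.2 TPM in the cKO, so the exon 2-3 controls were the low group. On one side its nearest tested row is Mdm2, which encodes the ubiquitin ligase of p53, 22919 bp away on the same strand. Mdm2 was at 37.7 ± 3.41 TPM in the exon 2-3 controls and 48.2 ± 4.12 TPM in the cKO (SD, n = 4), a fold change of 0.35 (limma adjusted p = 0.0361). On the other side, the nearer tested row Nup107 at 4262 bp had a fold change of -0.21 (adjusted p = 0.0870). The nearest tested rows of the other tested carriers with no overlap were also looked at. They had fold changes of -0.35 (Mettl18) and -0.06 (Ccdc181) beside Slc19a2, and 0.28 (Scarf1) and -0.06 (Pitpna) beside Slc43a2. Beside Slc30a1 they were -0.43 (Nek2, limma adjusted p = 0.0134) and 0.24 (Traf5), and only Nek2 was called. The part of position in these values was not tested.

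**Figure D2:**
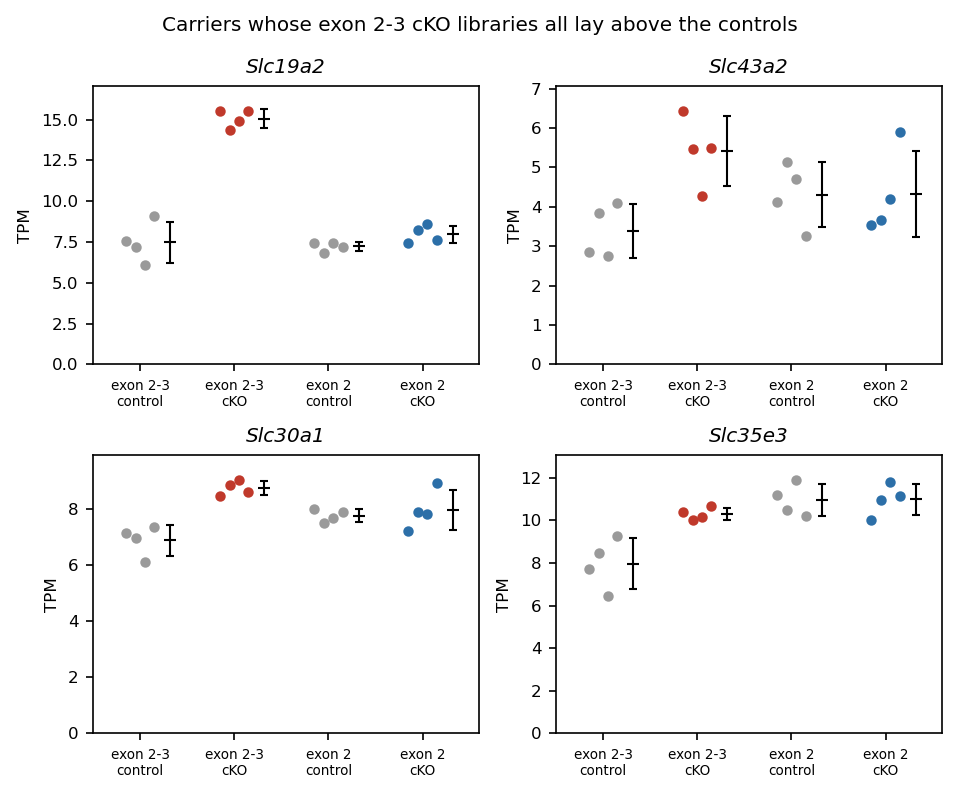
TPM of Slc19a2, Slc43a2, Slc30a1 and Slc35e3 in each of the 16 libraries, with the mean and SD of each group of 4 beside its points. The exon 2-3 cKO libraries of Slc19a2 sit between 14.3 and 15.5 TPM, above every library of the other 3 groups, while those of the other 3 carriers lie above their own controls and overlap the exon 2 libraries.

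Markers of other cells were looked at in the same comparison, and only the epicardial and mesenchymal list among them held called genes. Of 6 epicardial and mesenchymal markers held, 5 rose in the exon 2-3 cKO, where 4.16% of all genes were called higher, and none in the exon 2 cKO. Their sum was between 325 and 370 TPM in the exon 2-3 controls and between 481 and 527 TPM in the cKO. Endothelial markers summed to between 252 and 327 TPM in those controls and between 298 and 345 TPM in the cKO, with none of 3 called. Erythroid markers summed to between 2995 and 4554 TPM in the controls and between 1512 and 11293 TPM in the cKO, with none of 4 called. Myeloid markers summed to between 81.7 and 85.3 TPM in the controls and between 71.1 and 81.2 TPM in the cKO, with none of 2 tested called. The lower sum came from Lyz2 alone, with a mean of 80.3 TPM in the exon 2-3 controls and 70.3 TPM in the cKO. Cd68 went the other way, from a mean of 3.54 TPM in these controls to 4.89 TPM in the cKO. Ptprc, under the minimum for testing, also had a higher mean in the cKO. Of the 7 cardiomyocyte markers 1 was called, lower. They summed to between 17044 and 18505 TPM in the controls and between 16528 and 17518 TPM in the cKO. No marker list was at 0 in any group. The part of these cells in the rise of the 3 carriers was not tested.

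Promoter windows of RefSeq (GRCm38.p6, from 250 bases before to 50 after a transcript start) were held for 48 of the 58 carriers, 57 windows in all. The windows of 4 carriers are shown. Slc19a2 and Slc30a1 were taken because they rose, and Slc35e3 because its groups did not overlap. Slc36a1 was taken as the amino acid carrier with the most matches to the motif of lysosomal genes described below. The windows of Slc43a2, which also rose, are not shown. Capitals mark matches on either strand: the GC box GGGCGG in Slc19a2 (chr1:164248796-164249095, plus strand), the core of the metal response element, TGCGCNC or TGCACNC, in Slc30a1 (chr1:191906531-191906830, plus strand), and the E-box CACGTG in Slc36a1 (chr11:55204090-55204389, plus strand) and Slc35e3 (chr10:117746309-117746608, minus strand).
Slc19a2: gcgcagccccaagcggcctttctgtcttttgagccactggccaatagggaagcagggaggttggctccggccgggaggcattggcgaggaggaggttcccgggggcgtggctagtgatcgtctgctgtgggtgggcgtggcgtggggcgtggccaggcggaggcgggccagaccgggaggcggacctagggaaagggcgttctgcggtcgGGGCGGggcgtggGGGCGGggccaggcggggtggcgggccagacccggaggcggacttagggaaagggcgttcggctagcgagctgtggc
Slc30a1: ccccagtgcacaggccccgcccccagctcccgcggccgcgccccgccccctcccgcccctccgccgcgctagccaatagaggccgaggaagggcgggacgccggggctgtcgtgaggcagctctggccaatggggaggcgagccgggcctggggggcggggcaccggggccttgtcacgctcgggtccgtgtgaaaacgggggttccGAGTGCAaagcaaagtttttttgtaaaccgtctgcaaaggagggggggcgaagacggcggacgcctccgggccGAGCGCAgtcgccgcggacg
Slc36a1: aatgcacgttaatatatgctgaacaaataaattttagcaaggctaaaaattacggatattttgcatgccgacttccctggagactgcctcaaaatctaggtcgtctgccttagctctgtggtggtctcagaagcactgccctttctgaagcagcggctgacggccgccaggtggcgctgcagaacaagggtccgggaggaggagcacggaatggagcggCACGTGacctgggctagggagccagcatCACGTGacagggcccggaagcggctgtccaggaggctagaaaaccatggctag
Slc35e3: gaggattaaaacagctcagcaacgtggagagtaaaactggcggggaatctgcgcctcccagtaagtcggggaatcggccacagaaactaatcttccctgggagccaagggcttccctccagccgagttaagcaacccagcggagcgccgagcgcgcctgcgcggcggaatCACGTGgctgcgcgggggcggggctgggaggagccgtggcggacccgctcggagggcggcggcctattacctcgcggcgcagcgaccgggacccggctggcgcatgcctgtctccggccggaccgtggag

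The metal response core, bound by the zinc sensor MTF1 in other genes, was found 2 times in the window of Slc30a1. More matches were found in windows of carriers not called in either line: Slc30a10 (3), Slc16a9 (4) and Slc22a4 (4). This core was found in 19 of the 57 windows of carriers (33.3%) and in 25.7% of all 32851 windows of this length. The E-box, which in lysosomal genes is bound by TFEB and its relatives, was found 2 times in Slc36a1 and 1 time in Slc35e3, in 4 windows of carriers (7.02%) and in 7.15% of all windows. The core TGATGNAA of the element that ATF4 binds with C/EBP partners was found in 2 windows, those of Slc26a10 and Slc23a3 (3.51%, against 3.97% of all windows). Those letters were in none of the windows of Slc16a10, Slc36a1 and Slc43a2. The GC box was found in 30 windows of carriers (52.6%, against 35.7%). Besides that of Slc19a2, these included the windows of Slc30a1 (5 matches) and Slc35e3 (2 matches), where it is not marked above. The windows of Slc43a2 held it as well (4 matches and 1 match). A p53 half-site was found in 7 windows of carriers (12.3%, against 8.36%), and a full p53 element in none of the carriers and 0.0731% of all windows. The windows of Slc19a2, Slc43a2, Slc30a1 and Slc35e3 held no p53 half-site. No marked match overlapped a match of another motif, and the searches for the GC box and the p53 motifs were chosen after the values were seen. These are matches of letters in short windows and say nothing of binding.

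The 6 amino acid carriers were set against the other 52. Of the 6, Slc16a10, Slc36a1, Slc36a2 and Slc43a2 were tested. Among these 4, 1 rose and none fell in the exon 2-3 line. Of the 27 other carriers 2 rose and none fell, and 4.16% of all genes were called higher. Their fold changes ran from -0.28 to 0.55 with a median of 0.0038, beside 0.039 for the other carriers. The first median was negative under 6 of the 9 alternatives that kept every library (from -0.082 to -0.00056), and the second under quantile normalisation (-0.015) and median centring (-0.0098). Summed, the 6 amino acid carriers were at 17.9 ± 1.69 TPM in the exon 2-3 controls and 18.7 ± 1.92 TPM in the cKO. The sums of the exon 2 line were 24.1 ± 1.39 and 24.2 ± 1.01 TPM (SD, n = 4 each).

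Slc16a10, which carries aromatic amino acids, had a fold change of the opposite sign to that of Slc43a2 (chr10:40033532-40142270, minus strand). It read 7.54, 8.25, 6.65 and 7.29 TPM in the exon 2-3 controls and 5.22, 6.69, 5.38 and 6.57 TPM in the cKO. The groups overlapped through 1 library of each. Its fold change was -0.28 (SE 0.101, limma adjusted p = 0.142), and it was called only under quantile normalisation (adjusted p = 0.0466) and median centring (0.0348) among the 17 alternatives. Its exon 2 libraries read 9.77, 10.6, 10.7 and 9.50 TPM in the controls and 9.52, 9.85, 10.7 and 10.4 TPM in the cKO, with no shift beyond the spread (-0.0017, SE 0.076). The difference between the lines was -0.28 (SE 0.123, limma adjusted p = 0.291).

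Slc36a1 exports small amino acids together with protons, from lysosomes among other places (chr11:55204322-55236330, plus strand). It read 4.60, 5.41, 4.59 and 5.20 TPM in the exon 2-3 controls and 6.20, 5.24, 4.56 and 5.85 TPM in the cKO. The exon 2 libraries read 7.51, 5.96, 6.63 and 6.68 TPM in the controls and 7.50, 7.17, 7.59 and 5.78 TPM in the cKO. The groups overlapped in both lines, with fold changes of 0.12 (SE 0.103, limma adjusted p = 0.570) and 0.06 (SE 0.104, adjusted p = 0.999).

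Slc36a2, a relative of Slc36a1 that carries glycine, alanine and proline, was lower in level (chr11:55158468-55185099, minus strand). It read 1.78, 1.31, 1.54 and 2.08 TPM in the exon 2-3 controls and 1.64, 1.58, 1.20 and 1.49 TPM in the cKO. Libraries of the exon 2 line read 2.57, 2.92, 2.43 and 2.12 TPM in the controls and 2.18, 2.29, 2.28 and 2.44 TPM in the cKO. Both fold changes were within the spread, -0.11 (SE 0.121) and -0.09 (SE 0.109). The remaining amino acid carriers were under the minimum for testing: Slc6a15, a neutral amino acid carrier, had a mean of 0.263 TPM and a highest library of 0.428 TPM, and the glutamate carrier Slc1a6 a mean of 0.175 TPM and a highest library of 0.264 TPM.

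**Figure D3:**
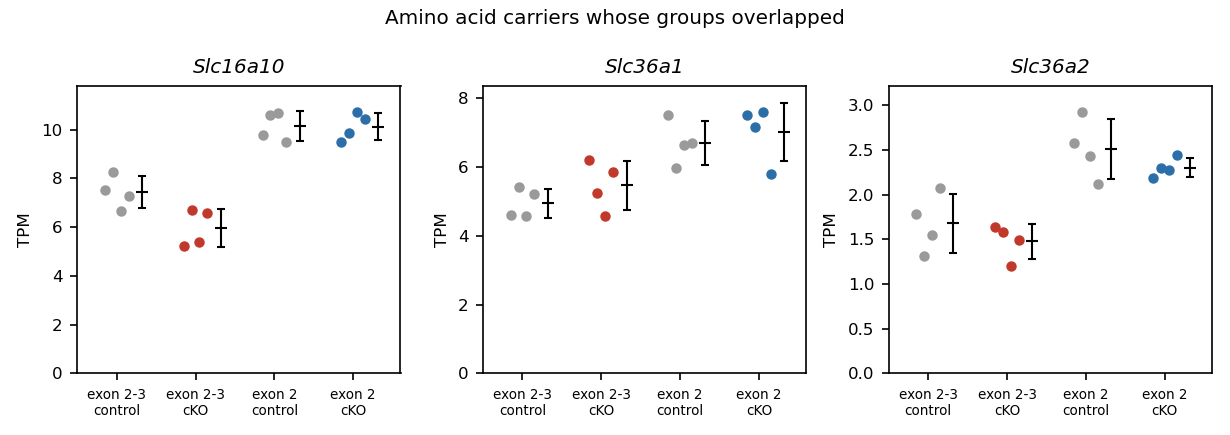
TPM of the amino acid carriers Slc16a10, Slc36a1 and Slc36a2 in each of the 16 libraries, with the mean and SD of each group of 4 beside its points. Control and cKO overlap in both lines for all 3, and the exon 2 libraries of Slc16a10 (from 9.50 to 10.7 TPM) lie above all exon 2-3 libraries (from 5.22 to 8.25 TPM).

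Genes that handle amino acids inside the cell were set beside the carriers. The list held tRNA synthetases, enzymes of serine and glutamine metabolism and amino acid sensors, and 15 of the 16 rows used were tested. Of these, 2 fell in the exon 2-3 cKO (limma, adjusted p under 0.05) and none rose, where 2.56% of all genes were called lower: Aldh1l2, a mitochondrial folate enzyme (-0.51), and Shmt1, the cytosolic serine hydroxymethyltransferase (-0.30). In the exon 2 cKO 2 rose and none fell, Aldh1l2 (0.82) and the mitochondrial Shmt2 (0.64), where 0.0763% of all genes were called. The medians over the 15 genes were -0.057 and 0.090. The list had been written with earlier results on some of its genes known, so its direction is a description only.

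The other vitamin carriers did not pass the test in the exon 2-3 line. The thiamine carrier Slc19a3 had a fold change of -0.02 (SE 0.131), the reduced folate carrier Slc19a1 -0.01 (SE 0.113) and the proton-coupled folate carrier Slc46a1 0.07 (SE 0.141), each with a limma adjusted p of at least 0.811. The 5 vitamin and folate carriers summed to 14.2 ± 1.62 TPM in the exon 2-3 controls and 22.0 ± 1.19 TPM in the cKO (SD, n = 4), a gap carried by Slc19a2. The sums of the exon 2 line were 20.5 ± 0.628 and 20.3 ± 2.57 TPM.

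Of 6 metal carriers tested in the exon 2-3 line, 1 rose (Slc30a1) and none fell, where 4.16% of all genes were called higher and 2.56% lower. Their fold changes ran from -0.04 for the iron exporter Slc40a1 to 0.31, with a median of 0.11, beside 0.032 over all genes. The zinc importers Slc39a3 (0.17, SE 0.095) and Slc39a10 (0.10, SE 0.069) and the magnesium carrier Slc41a1 (0.12, SE 0.098) did not pass the test. None of 6 members of family 35, 4 carriers of organic ions and carnitine, 2 monocarboxylate carriers and 2 ion exchangers was called. The carnitine importer Slc22a5 had a fold change of -0.10 (SE 0.073). The nucleoside carrier Slc29a3 was at 0.14 (SE 0.099) and the sugar carrier Slc2a12 at -0.36 (SE 0.391), the latter with the widest error of the 31. The vesicular polyamine carrier Slc18b1 read 3.50, 3.77, 3.29 and 5.98 TPM in the controls and 5.09, 5.58, 5.33 and 6.34 TPM in the cKO, and its fold change of 0.38 (limma adjusted p = 0.176) was called without control replicate 4 (0.0194). Carriers in this paragraph other than Slc30a1 and Slc39a10 were picked after their values were seen.

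The second comparison set the exon 2 cKO against its own controls. None of the 31 carriers passed limma's threshold there (0.0763% of all genes did), and 1 had an unadjusted p under 0.05, as had 3.21% of all genes. The smallest adjusted p was 0.703, for Slc35d3 of family 35. It read 2.59, 2.70, 1.89 and 3.07 TPM in the controls and 0.863, 1.18, 0.939 and 2.15 TPM in the cKO, a fold change of -0.66 (SE 0.182). The groups overlapped through cKO replicate 4. Of the 31 fold changes 16 were positive and 15 negative, with a median of 0.0053, beside -0.012 over all genes. The 4 amino acid carriers had a median of -0.0023 (from -0.09 to 0.06) and the 27 others one of 0.0061.

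The difference between the 2 lines' effects was called for Slc19a2 alone among the 31 (limma, adjusted p under 0.05, 2.37% of all genes). An unadjusted p under 0.05 was met by 6 of the 31 and by 15.0% of all genes. The largest estimate was that of Slc35d3, 1.12 (SE 0.354, adjusted p = 0.113), called without exon 2-3 control replicate 4 (0.0303). The 2 effects of Slc35d3 were 0.46 and -0.66. None of the 4 amino acid carriers was called, with the smallest adjusted p at 0.220 for Slc43a2.

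The 2 control groups differed far more than control and cKO did within a line, and most carriers were lower in the exon 2-3 controls. Of the 31, 18 were called and all 18 were lower there (limma, adjusted p under 0.05), beside 52.6% of all genes called and 38.1% called lower. In 16 carriers the 4 exon 2-3 controls lay below all 4 exon 2 controls (32.6% of all genes). The median was -0.34 for the carriers and -0.14 over all genes, and 3 of 4 amino acid carriers and 15 of 27 others were called. Under median centring the median over all genes was 0.041 and 10 carriers were called, 8 lower and 2 higher (Slc35b1 and Slc19a2). Quantile normalisation called 14, of which Slc35b1 was higher, and rescaling without hemoglobin genes 18, of which Slc35b1 was higher. Cardiomyocyte markers summed to between 17044 and 18505 TPM in the exon 2-3 controls and between 12567 and 14648 TPM in the exon 2 controls, and epicardial and mesenchymal ones to between 325 and 370 and between 477 and 653 TPM. Their part in the difference was not tested, and line and batch cannot be told apart.

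The carrier that differed most between the control groups was Slc19a1, the reduced folate carrier (chr10:77032269-77050432, plus strand), picked like the next 2 after its values were seen. It read 1.94, 1.88, 1.48 and 2.33 TPM in the exon 2-3 controls and 7.06, 6.45, 7.76 and 6.99 TPM in the exon 2 controls. The cKO libraries followed their own line, at 1.82, 1.97, 1.70 and 2.03 TPM and at 6.51, 5.58, 9.75 and 6.08 TPM. The difference of the controls was -1.48 (SE 0.132, limma adjusted p = 2.05e-07). Slc16a7, a monocarboxylate carrier, differed by -1.07 (SE 0.234, adjusted p = 0.00126) and the lysosomal nucleoside carrier Slc29a3 by -0.66 (SE 0.090, adjusted p = 2.06e-05). Slc16a7 read 1.32, 1.25, 3.47 and 1.15 TPM in the exon 2-3 controls and 1.07, 1.55, 3.36 and 1.20 TPM in their cKO, so replicate 3 stood above the other libraries in both groups.

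**Figure D4:**
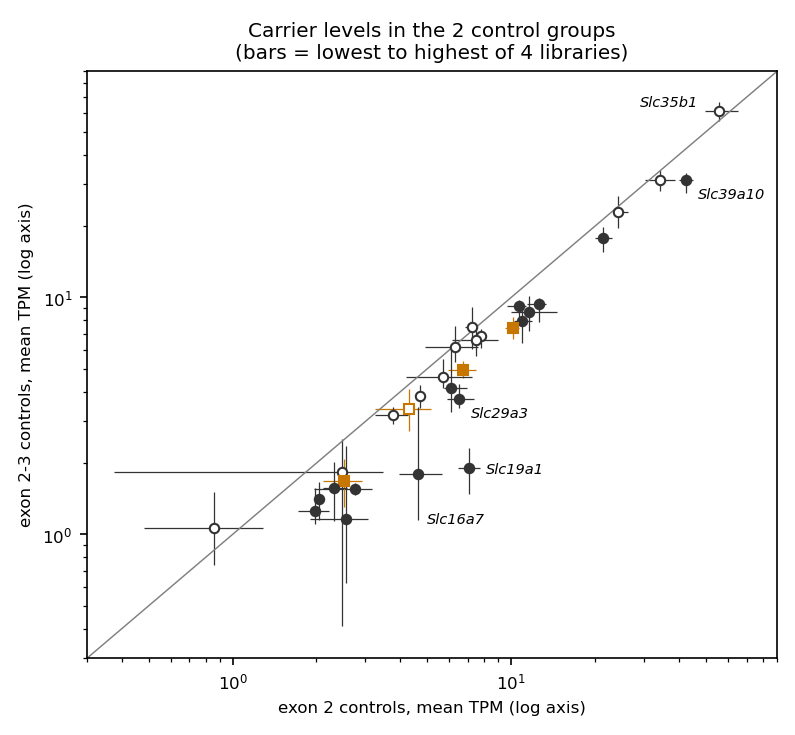
Mean TPM of the 31 tested carriers in the exon 2 controls (horizontal) and the exon 2-3 controls (vertical), both on log axes, with bars from the lowest to the highest of 4 libraries. Squares are amino acid carriers, filled symbols have an adjusted p under 0.05 and the line marks equal levels. The 18 filled symbols all lie below the line, farthest for Slc19a1.

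Neighbouring carrier genes could differ widely in level. Slc47a1 and Slc47a2, 539 bp apart on the same strand, had means of 23.6 and 0.0718 TPM, a ratio of 329. Slc16a13 and Slc16a11, 374 bp apart on opposite strands, had means of 6.47 and 0.422 TPM, a ratio of 15.3. Slc22a21 and Slc22a4, 2781 bp apart, had 2.13 and 0.122 TPM, a ratio of 17.4. The amino acid carriers Slc36a1 and Slc36a2, 19222 bp apart on opposite strands, were closer, at 6.03 and 1.99 TPM, a ratio of 3.03. In each of these 4 pairs the higher gene was above the lower one in all 16 libraries. The means of the pairs Slc5a4a with Slc5a4b and Slco4c1 with Slco6b1 were all under 0.0219 TPM. Such related genes can share reads, and how the authors' counting treated them is not given.

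**Figure D5:**
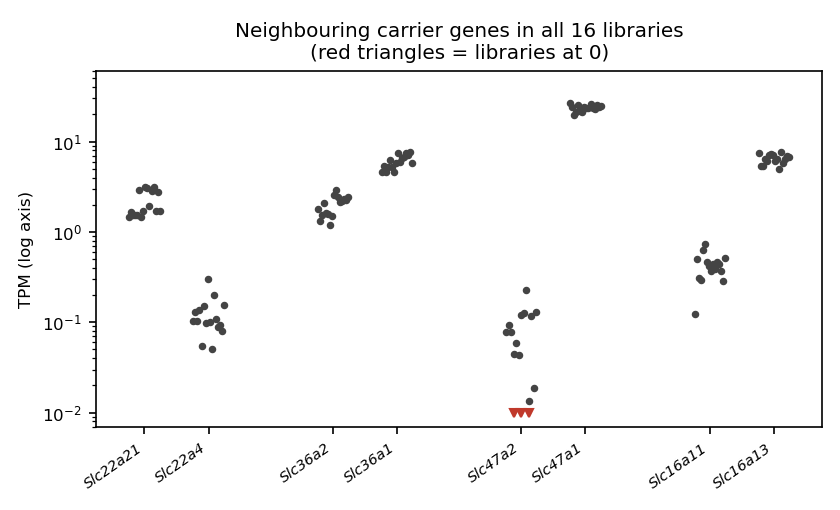
TPM on a log axis of 4 pairs of neighbouring carrier genes in all 16 libraries, 1 point per library, with triangles for libraries at 0. The points of Slc47a1 lie between 19.7 and 26.7 TPM and those of its neighbour Slc47a2 at or below 0.228 TPM.

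The 27 carriers below the minimum had means from 0 to 0.862 TPM. Of these, 24 had a value above 0 in some library, and in a fit with no filter on low values none was called in either line (limma, adjusted p over all rows with a value above 0). The clearest of them, picked after its values were seen, was Slc17a8, a vesicular glutamate carrier. It read 0.347, 0.355, 0.328 and 0.371 TPM in the exon 2-3 controls and 0.868, 0.474, 0.828 and 0.701 TPM in the cKO, apart but low, with a fold change of 0.34 and an adjusted p of 0.0816. Slc45a3 was also apart, between 0.0976 and 0.168 TPM in those controls and between 0.174 and 0.245 TPM in the cKO (limma adjusted p = 0.107). The serotonin carrier Slc6a4 ranged from 0.440 to 2.65 TPM over the 16 libraries. The 13 carriers with a mean under 0.1 TPM included the sodium-coupled carriers Slc5a8, Slc5a10, Slc5a4a and Slc5a4b and the organic anion carriers Slco4c1 and Slco6d1.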

How the data were processed

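Expression was measured by RNA-seq in 16 libraries, 4 in each of 4 groups, and the group and replicate number were read from the sample titles. The authors deposited 1 table of TPM values, whose gene rows carry coordinates that match RefSeq GRCm38.p6 in 5919 of 5921 rows. The submitters' processing notes name FastQC, Trim Galore 0.6.7, HISAT2 2.2.1, StringTie 2.2.1, featureCounts, DESeq2 and GRCm38, without saying which step made the TPM values. Whether reads were counted by strand is not given in the sources used here, and the labels differ on library preparation (stranded mRNA or depletion of ribosomal RNA). The table was held in part: chromosomes 1 and 10, and chromosome 11 up to position 106501211. An incomplete last line was left out.

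The analysis used log2(TPM + 1), on which changes of low genes come out too small, and the genes with a mean of at least 1 TPM over the 16 libraries (2620). With limma 3.58.1 in R 4.3.3 (lmFit, then eBayes with an intensity trend), cKO was compared with control in the 8 libraries of each line separately. A model of the 4 group means over all 16 libraries gave the contrast of the lines' effects and the contrast of the control groups. P-values are two-sided and adjusted by Benjamini-Hochberg over all genes tested, with a threshold of 0.05. The fit was tested on simulated data. Tables and plots were made with Python 3.11.15, pandas 2.3.3 and matplotlib 3.10.9. Whether the 4 libraries of a group came from separate litters is not stated, and p-values measure the spread between these libraries.

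Described library by library were the carriers called in a line or in the difference, and the amino acid carriers with a mean of at least 1 TPM. So were the tested carriers whose cKO and control libraries did not overlap in a line, and the 5 most abundant. Members and lists were chosen with earlier results of these data known. From the list of amino acid handling genes, 1 gene is not reported here and was left out of its counts. The alternatives were a pseudocount of 0.1, no filter, a minimum of 5 TPM, quantile normalisation, centring on the library median, rescaling without hemoglobin genes, one fit over all libraries, a replicate block, no intensity trend, and leaving out each library.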

Additional observations from a re-analysis of the deposited data

Results flagged for a closer look

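In 124 groups of 4 libraries (31 tested carriers in 4 groups), 9 held 1 library far from the other 3, where chance gives about 1 in 20 groups. Among the exon 2-3 controls, Slc2a12 was low in replicate 1 (0.409 TPM, others from 2.18 to 2.53 TPM), Slc16a7 high in replicate 3 (3.47 TPM, others from 1.15 to 1.32 TPM) and Slc35d3 high in replicate 4 (2.37 TPM, others from 0.625 to 0.895 TPM). In their cKO, Slc22a21 was high in replicate 2 (2.92 TPM, others from 1.45 to 1.69 TPM) and Slc4a3 in replicate 4 (20.1 TPM, others from 15.6 to 16.3 TPM). In the exon 2 controls, Slc2a12 was low in replicate 4 (0.375 TPM, others from 2.95 to 3.47 TPM), and in replicate 3 Slc18b1 (6.93 TPM, others from 5.73 to 5.92 TPM) and Slc47a1 (26.2 TPM, others from 23.3 to 23.8 TPM) were high. In the exon 2 cKO, Slc40a1 was high in replicate 4 (6.71 TPM, others from 5.29 to 5.50 TPM).

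The sugar carrier Slc2a12 lay either between 0.316 and 0.409 TPM or between 2.18 and 3.70 TPM in every library, with the low level in 4 of 16. The low libraries were exon 2-3 control replicate 1 (0.409 TPM), exon 2-3 cKO replicates 1 and 2 (0.316 and 0.348 TPM) and exon 2 control replicate 4 (0.375 TPM). The gene is overlapped on the other strand by Tbpl1, whose group means were between 24.8 and 27.1 TPM. The part of that overlap in the values was not tested.

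The effect of the cKO on Slc19a2 differed between the lines by 0.81 on the log2 scale (limma adjusted p = 0.00158), with all 4 cKO libraries above all 4 controls in both lines. In the exon 2 line the lowest cKO library (7.45 TPM) was barely above the highest control (7.42 TPM). The effect there was 0.12 (SE 0.079, limma adjusted p = 0.999).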

How the results depend on the processing

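Of the 31 carriers, 3 were called in the exon 2-3 line, 1 with no filter, 5 under quantile normalisation, 5 under median centring and between 1 and 5 without 1 library. The 5 under both scalings were the 3 with Slc35e3 and Slc16a10. The difference between lines called 1 carrier, and between 1 and 2 without 1 library. The control groups gave 18, but 10 at a minimum of 5 TPM, where fewer carriers are tested, and 10 under centring. Over all genes, the exon 2-3 line gave 176 (109 higher), 95 with no filter, 311 (157 higher) under quantile normalisation, 343 (142 higher) under centring, 269 (157 higher) under rescaling and between 70 and 190 without 1 library. The exon 2 line gave 2, 4 in one fit over all libraries and between 2 and 4 without 1 library. Where no cause is named it was not tested. The carriers called kept their sign under every alternative run in which they were tested: 3 in the exon 2-3 line, 1 in the difference and 18 in the control groups. Signs of other called genes were not compared. With the replicate number as a block, 2 carriers were called in the exon 2-3 line (Slc19a2 and Slc43a2, with Slc30a1 at an adjusted p of 0.0798), none in the exon 2 line and 1 in the difference. The numbers were not taken as pairing: same-numbered libraries correlated between -0.029 and 0.211 in the exon 2-3 line and between 0.064 and 0.200 in the exon 2 line, where each library correlated best with its own number, a hint from the data only. Numbers are not shared across lines, so no block was run for the control groups. TPM gives no reads per value, so what depth could show of the carriers under 1 TPM is unknown.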

Other observations

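Promoter windows of the carriers with a mean of at least 1 TPM were richer in CpG than those of the carriers below it. The median number of CpG in 300 bases was 19 (from 1 to 47) over the 28 windows of the first and 7 (from 0 to 32) over the 29 windows of the second, against 7 over all windows. At least 10 CpG were found in 25 of the 28 (89.3%) and in 13 of the 29 (44.8%), against 43.5% of all windows. The classes overlapped: a window of Slc39a10, at a mean of 38.0 TPM, had 1 CpG. Windows of the same carrier are not independent, and these are descriptions, with no test.

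Levels within a group of 4 libraries usually agreed. For the median tested carrier, the highest library was 1.51 times the lowest in the group where they were farthest apart. The ratio was above 3 for 4 carriers: Slc2a12 (9.25), the manganese exporter Slc30a10 (7.97), Slc35d3 (3.79) and Slc16a7 (3.14). Of the 58 carriers 23 overlapped another row, and 35 overlapped none.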
